A study of Mus musculus with 2207 samples.

Results

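Layer 4 and upper layer 5 (5a) of the mouse cortex hold excitatory neurons that express Rorb, and the nuclei of this kind described here were 27.6% of 1324 excitatory nuclei among 2207 nuclei in all. By pool they numbered 53, 60, 67, 62, 63 and 61, in the order in which the pools are introduced below. A nucleus labelled as a neuron was taken as excitatory when its Slc17a7 value was above its Gad1 value. Within each plate format, log2(RPKM + 1) of 12 layer markers was turned into z-scores over the excitatory nuclei, and each nucleus joined the set with the highest mean z-score. The sets were Cux2, Calb1 and Otof (upper layers), Rorb, Rspo1 and Scnn1a (layer 4/5a), Fezf2, Etv1 and Bcl11b (layer 5), and Foxp2, Tle4 and Syt6 (layer 6). These nuclei were thus chosen by the measured values of the 12 markers, Slc17a7 and Gad1. The nuclei led by the second set are called L4/5a nuclei below, and those of the other 3 sets are called other excitatory nuclei.

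Layer 4 is the main target of the sensory thalamus in sensory areas of the cortex, and its excitatory neurons pass that input on to the upper layers. Frontal cortex has a thin or indistinct layer 4, and there Rorb marks neurons of deep layer 3 to layer 5a as well. Rorb encodes a nuclear receptor of the ROR family, Rspo1 encodes a secreted protein that strengthens Wnt signalling, and Scnn1a encodes a subunit of the epithelial sodium channel.

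The nuclei came from the cortex (frontal cortex in the study's text) of male C57BL/6 mice of 14 weeks of age that all received tamoxifen at 3 weeks (100 mg/kg, 2 times). Ehmt1 encodes GLP, a methyltransferase that places the repressive mark H3K9me2. In 96-well plates the genotypes were wild type (Ehmt1+/+) and Ehmt1delta/+. In 384-well plates the label WT stood for Ehmt1+/+ mice with an Ehmt1 iTg allele but without CamKII-CreER, and the label Ehmt1delta/+ stood for the same with 1 mutant copy. The remaining 384-well groups, iTg and Ehmt1delta/+ iTg, carried the Ehmt1 iTg allele and CamKII-CreER, which recombines in forebrain neurons after birth and switches the GLP transgene on. The figure legends of the study place CamKII-CreER in all of these genotypes, the WT and Ehmt1delta/+ ones included, and the labels are followed here. Fewer nuclei with a transcript and less RNA per nucleus cannot be told apart in a pool mean. Each genotype of a plate format was 1 pool of nuclei from 3 mice, and nothing in the labels says which mouse a nucleus came from, so each pool counts as 1 sample. In the 384-well plates the WT pool had its own title code and the other 3 pools shared another, so genotype and title code cannot be told apart there.

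RamDA-seq reads total RNA over the full length of transcripts. The L4/5a nuclei had median read totals per pool between 295304 and 353058, with single nuclei from 256049 to 514190 reads in the 96-well plates and from 51920 to 1006133 in the 384-well plates. No 2 nuclei had identical values. In the 96-well WT pool, 60.4% of the L4/5a nuclei had a Gad1 value above 0 (a low one, with a pool mean of 1.59 RPKM), against 9.68% to 21.7% in the other 5 pools. This pool stands apart in that respect, and results that move with it are given with that fact below.

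The share of 27.6% had an exact 95% interval of 25.2% to 30.1% (counting error only). It was 27.7% in the 96-well WT pool and 27.3% in the 96-well Ehmt1delta/+ pool. On 384-well plates it was 31.9% in WT, 24.5% in Ehmt1delta/+, 28.6% in iTg and 26.5% in Ehmt1delta/+ iTg. The exact intervals of the 6 shares all overlapped, the widest-set pair being 25.7% to 38.7% for 384-well WT and 19.3% to 30.3% for 384-well Ehmt1delta/+.

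Rorb and Rspo1 were met in most of these nuclei and Scnn1a in fewer. Rorb was above 0 in 87.3% to 96.7% of L4/5a nuclei per pool, Rspo1 in 67.7% to 80.3% and Scnn1a in 31.3% to 47.2%. All 3 were above 0 in 85 nuclei, 56 nuclei had 1 of the 3 and 9 had none. The rest had a pair of them, mostly Rorb with Rspo1, with 43 that had Rorb with Scnn1a and 4 that had Rspo1 with Scnn1a. Of the nuclei with none, 4 had no marker of any set and fell into this class by default. The L4/5a score led the next score by a median of 0.71, 29 nuclei led by under 0.1, and 34 other excitatory nuclei lay within 0.1 on the other side. The nucleus with the smallest lead inside (0.0052, 384-well Ehmt1delta/+) had Rorb at 21.7 RPKM and no Rspo1 or Scnn1a, and one just outside (384-well WT) had Rorb at 19.99 RPKM and likewise no Rspo1 or Scnn1a. The next score was that of layer 5 in 64 nuclei, of layer 6 in 28 and of the upper layers in all others.

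The mean Rorb value over the 6 pools was 19.5 RPKM in L4/5a nuclei against 2.57 RPKM in upper layer, 1.63 RPKM in layer 5 and 0.334 RPKM in layer 6 nuclei. Rspo1 was at 17.4 RPKM against 1.71, 0.469 and 0.264 RPKM, and Scnn1a at 5.29 RPKM against 0.265, 0.329 and 0.0442 RPKM. These values chose the nuclei and are given as a description. Cux2, a homeobox gene of upper layer neurons that layer 4 neurons also express, was about as high in L4/5a nuclei (38.2 RPKM) as in upper layer nuclei (41.9 RPKM) and far lower in layers 5 and 6 (1.31 and 0.64 RPKM). Otof, by contrast, was at 0.166 RPKM in L4/5a and 27.6 RPKM in upper layer nuclei. Fezf2 (2.42 against 21.1 RPKM in layer 5), Bcl11b (0.727 against 11.8 RPKM), Syt6 (0.0533 against 29 RPKM in layer 6) and Foxp2 (0.0465 against 7.52 RPKM) were low, as the rule asks. Slc17a7, the vesicular glutamate transporter of cortical excitatory neurons, was at 107.7 RPKM.

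**Figure D1:**
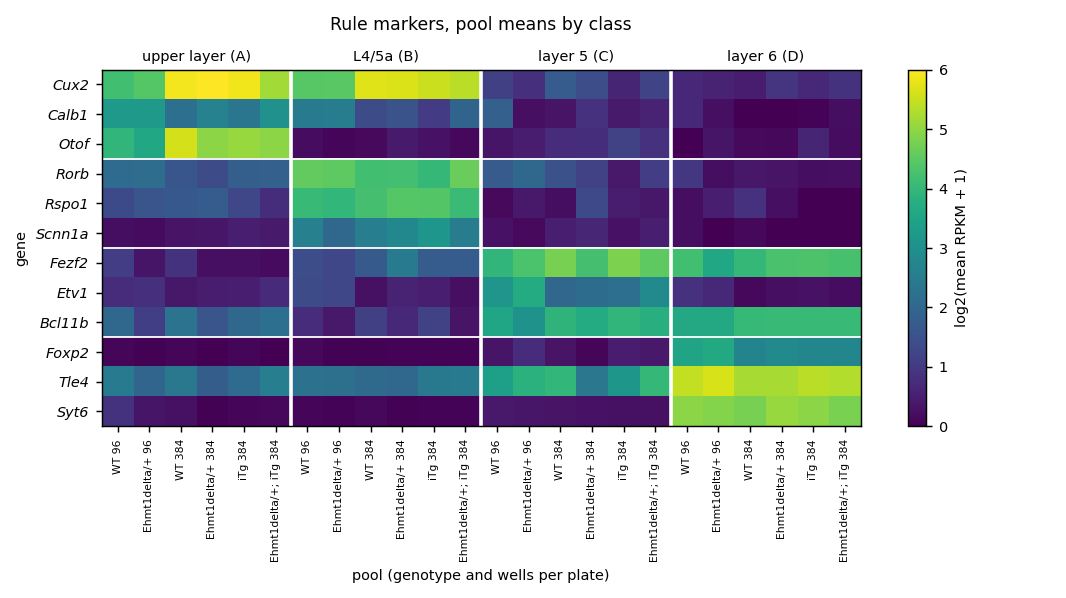
Mean RPKM of the 12 rule markers, as log2(mean + 1) on the colour scale, in each of the 6 pools (columns) and 4 classes (blocks of columns). In the L4/5a block, Rorb, Rspo1 and Scnn1a are high in each pool and Cux2 is as bright as in the upper layer block, while Otof, Foxp2 and Syt6 are dark.

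When 1 of the 3 markers was left out of the rule, that marker could be read in nuclei it had not chosen. Rorb was then higher in the chosen nuclei than in the other excitatory nuclei of the same pool by 2.20 to 3.13 on the log2 scale, and Rspo1 by 1.92 to 4.50. Scnn1a was higher by 0.49 (384-well WT) to 3.49 (iTg). The mean of each of the 3 was higher in the chosen nuclei in 6 of 6 pools. In 384-well WT, Scnn1a was above 0 in 18.8% of the nuclei chosen without it and in 14.9% of the others. It was thus hardly more frequent in the nuclei chosen by Rorb and Rspo1 there.

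Genes outside the rule that set L4/5a nuclei apart were then ranked by the smallest of the 6 within-pool log2 ratios to other excitatory nuclei (ratios of mean RPKM + 0.1). The classes were cut from the same nuclei, so these are descriptions with no test. Of 17938 genes with at least 2 RPKM in the higher class, 0.87% were 2-fold or more higher in L4/5a nuclei in all 6 pools and 1.47% were 2-fold or more lower. Higher by any size in all 6 pools were 2724 genes (15.2%), and lower were 3047 (17%).

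Adam33, a membrane-bound metalloprotease gene (mm10 chromosome 2, 131050591 to 131063814, minus strand), ranked first. It was at 34.7 RPKM in the 96-well WT pool and 46.5 RPKM in the 96-well Ehmt1delta/+ pool. Among 384-well pools it was at 111.01 RPKM in WT, 85.3 in Ehmt1delta/+, 69.7 in iTg and 67.4 in Ehmt1delta/+ iTg. Its mean was 69.1 RPKM against 7.34 RPKM in other excitatory nuclei, with 15.6 RPKM in the upper layers, 2.99 in layer 5 and 0.971 in layer 6. It was above 0 in 57.1% to 80.6% of L4/5a nuclei per pool, more often than Scnn1a in each pool.

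Ntn4, a netrin of the extracellular matrix, was at 3.28 RPKM against 0.41 RPKM, and Tspan11, a tetraspanin, at 6.00 against 0.642 RPKM. Cbln4, which encodes a secreted organizer of synapses, was at 9.41 against 1.20 RPKM. Receptors and ligands of immune signalling were also in this group, with Il4ra at 4.14 against 0.607 RPKM, Cd200r1 at 4.94 against 0.526 RPKM and Il12a at 4.11 against 0.507 RPKM. Kcnab3, a subunit that modulates voltage-gated potassium channels, was at 43.4 against 8.29 RPKM. Its antisense gene Kcnab3os (28.96 against 5.87 RPKM) lies inside it on the other strand of chromosome 11, and counts that ignore strand cannot separate the pair. The rest of the top 15 were Fam83f, Hspb3, Whrn, Bglap3 and Mtmr11, from 2.02 RPKM (Fam83f) to 29.9 RPKM (Whrn, a scaffold protein).

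Ltbr, the lymphotoxin beta receptor gene, ranked next to Adam33 (3.03 against 0.0949 RPKM). Its start lies 6773 bases from the start of Scnn1a, on the opposite strand of mm10 chromosome 6 (Ltbr 125306571 to 125313885, minus strand, and Scnn1a 125320659 to 125344943, plus strand). Ltbr was above 0 in 23 of 46 L4/5a nuclei with Scnn1a above 0 and in 3 of 67 without it in the 96-well plates, which is 50% (34.9% to 65.1%) against 4.48% (0.933% to 12.5%). In the 384-well plates the shares were 59.4% (48.9% to 69.3%) of 96 nuclei with it and 1.91% (0.396% to 5.48%) of those without Scnn1a. Ltbr values in this class thus came mostly from nuclei that also held Scnn1a, a gene the rule used, and whether the reads belong to transcripts of Ltbr itself was not tested.

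Most genes at the low end were genes of layer 6 nuclei. Ighm, the immunoglobulin heavy constant mu gene, was at 0.268 RPKM in L4/5a nuclei and 104.9 RPKM in layer 6 nuclei. Slc12a4, a potassium-chloride cotransporter gene, was at 0.0596 against 18.4 RPKM in layer 6, and Shb, an adaptor protein gene, at 0.055 against 6.87 RPKM. Krt80 and H60b were listed at 0 in all L4/5a nuclei and had 19.1 and 8.43 RPKM in layer 6. The T cell receptor segments Trbd1, Trbd2 and Trbj1-3 were in this group too, but they are very short, so that few reads make a high RPKM. Thbd, the thrombomodulin gene, was at 0.55 RPKM against 11 in layer 5 and 13 in layer 6, and Adamts16 at 0.359 RPKM against 5.05 in the upper layers and 6.90 in layer 6.

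**Figure D2:**
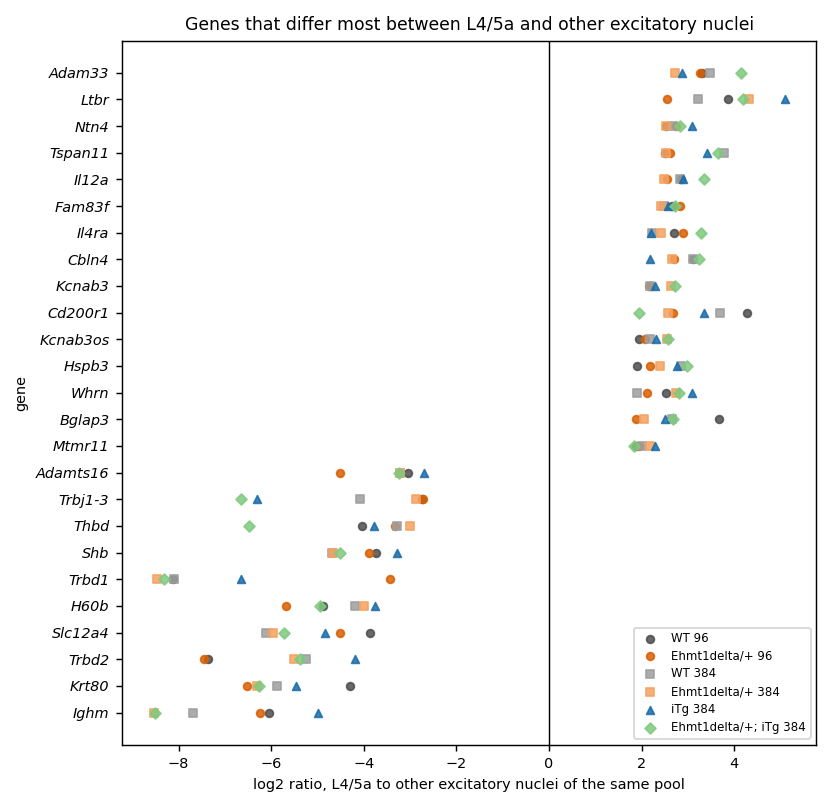
Log2 ratio of mean RPKM + 0.1 in L4/5a nuclei to that in the other excitatory nuclei of the same pool for the 15 highest and 10 lowest genes outside the rule markers (1 point per pool, colour and shape by genotype and plate format). The points of each gene lie on 1 side of 0, with Adam33 at 2.71 or more in all 6 pools.

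Other genes known for layer 4 and intratelencephalic neurons of layer 5 went mostly the same way. Of the 20 on that list, 11 reached 2 RPKM in either class, and 7 of these were higher in L4/5a nuclei in all 6 pools and 1 was lower (against 15.2% and 17% of all genes). Kcnh5, a potassium channel gene, was at 43.9 against 12.7 RPKM, Plxnd1, a semaphorin receptor gene, at 93.4 against 40.1 RPKM, Cux1 at 18.4 against 6.87 RPKM, and Whrn is given above. Pan-excitatory genes were slightly higher as a group (10 of 12 in all 6 pools, median log2 ratio 0.48), with Slc17a7 the exception that was lower (107.7 against 121.4 RPKM).

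Rorb belongs with its relative Rora and with the REV-ERB receptors Nr1d1 and Nr1d2 to the nuclear receptors of the circadian clock. Of the 13 ROR and clock genes at 2 RPKM or more, 11 were higher in L4/5a nuclei in all 6 pools and none was lower (15.2% and 17% of all genes). Rorb is one of these 11 and was used by the rule. Rora was at 9.46 against 4.05 RPKM, Nr1d1 at 65.3 against 36.2 RPKM and Arntl at 17.2 against 12.3 RPKM, whereas Clock was at 10.3 against 10.04 RPKM. The differences other than that of Rorb were under 2-fold in at least 1 pool, and the list's median log2 ratio was 0.45.

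Glutamate receptor genes split in both directions. Of 19 at 2 RPKM or more, 7 were higher and 11 lower in L4/5a nuclei in all 6 pools, against 15.2% and 17% of all genes. Among the AMPA receptor subunits, Gria4 was higher (45.6 against 22.6 RPKM) and Gria1 (26.7 against 60.8 RPKM) and Gria3 (20.1 against 64 RPKM) were lower, while Gria2 was at 101.6 against 106.5 RPKM. Among kainate receptor subunits, Grik1 was at 13.4 against 6.97 RPKM, Grik3 at 9.72 against 31.4 RPKM and Grik4 at 3.20 against 16 RPKM. The metabotropic receptors Grm2 (21.2 against 7.85 RPKM) and Grm7 (95.7 against 51.7 RPKM) were higher, and Grm8 (2.98 against 12.3 RPKM) lower.

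Of 29 ion channel genes, 10 were higher and 9 lower in all 6 pools, and the counts of this paragraph stand against the same 15.2% and 17% of all genes. The T-type calcium channel genes split, with Cacna1i at 51.1 against 28.9 RPKM, Cacna1g at 75.1 against 50.8 RPKM and Cacna1h at 5.44 against 28.8 RPKM. Kcna2, a potassium channel gene, was at 21.9 against 11.9 RPKM, and Kcnn2, a calcium-activated one, at 6.64 against 15.7 RPKM. Of 20 postsynaptic and spine genes, 4 were higher and 9 lower in all 6 pools, none by 2-fold throughout. Of 13 cortical transcription factors at 2 RPKM or more, 7 were higher and 2 lower, with Pou3f2 at 7.6 against 2.88 RPKM, Satb1 at 15.2 against 8.15 RPKM and Sox5 at 2.46 against 7.86 RPKM. Of 10 R-spondin and Wnt pathway genes at that level, 3 were higher (Rspo1 among them) and 4 lower. Rspo1's receptor Lgr4 was at 5.27 against 4.46 RPKM.

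Of the partner subunits of the sodium channel, Scnn1b was at 0.588 RPKM and Scnn1g at 0.094 RPKM in L4/5a nuclei, against 5.29 RPKM of Scnn1a. Both stayed under 2 RPKM in each class.

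Ehmt1 itself was read before genotypes were compared. L4/5a nuclei of the 96-well plates had 16.7 RPKM in WT against 30.4 RPKM in Ehmt1delta/+. Those of the 384-well plates had 19.4 in WT, 31.2 in Ehmt1delta/+, 20.3 in iTg and 34.3 in Ehmt1delta/+ iTg. The pools labelled Ehmt1delta/+ were thus above all pools with 2 intact copies (log2 ratio 0.77, SE 0.19, limma unadjusted p = 0.0196, adjusted p = 0.785, higher in both plate formats). A value over all exons cannot show which allele the reads came from, so it is no check of the deletion, and the directions below rest on the labels. Ehmt2, which encodes the partner enzyme G9a, differed by 0.02 and 0.11 on the log2 scale between the labelled genotypes in 96-well and 384-well plates. The iTg pools were no higher in Ehmt1 than their counterparts by more than 0.14 on that scale.

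Across 23380 genes, limma with the plate format as a block and 4 pools called none between the pools labelled Ehmt1delta/+ and WT at an adjusted p of 0.05 (0%), in L4/5a nuclei. At an unadjusted p of 0.05 there were 1461 genes (6.25%), of which 526 (2.25%) were higher and 935 (4%) lower. The fit had 1 residual degree of freedom, so a count of 0 says nothing about changes of the sizes described here. That degree of freedom is the disagreement of the genotype ratio between the 2 plate formats. Each gene's variance was also moderated by limma toward that of all genes (2.46 prior degrees of freedom). SE and p therefore do not measure a spread between mice or between replicate pools. Genes are therefore given by their values and by whether both plate formats went the same way. Higher in both were 5062 genes (21.7%), and lower in both were 7036 (30.1%), with a median log2 ratio of -0.04. The adjusted p of the named genes was 0.785 or higher.

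Apol7b and Apol7e, of the apolipoprotein L family, ranked highest by the smaller of both log2 ratios. Apol7b was at 0.168 RPKM in WT and 3.06 RPKM in Ehmt1delta/+ on 96-well plates, and at 0.0145 and 2.40 RPKM on 384-well plates. In the iTg pool it was at 0.154 RPKM and in Ehmt1delta/+ iTg at 0.373 RPKM. Both pools labelled Ehmt1delta/+ and without CamKII-CreER lay above the other 4. It was above 0 in 2 of 53 and 1 of 67 L4/5a nuclei of the WT pools, in 19 of 60 and 18 of 62 of the Ehmt1delta/+ pools, and in 2 of 63 and 7 of 61 of the iTg pools. It passed the filter on low values through the Ehmt1delta/+ pools alone, so that a gene kept in this way had to differ, and its fit is a description. The fitted log2 ratio was 4.0 (SE 0.30), and other excitatory nuclei had log2 ratios of 1.29 and 1.12. Between the classes, no gene of 23380 (0%) passed adjustment in limma, with 1197 (5.12%) at an unadjusted p of 0.05 (2.43% higher and 2.69% lower). Apol7e went from 0.0463 to 2.01 RPKM and from 0 to 1.13 RPKM, and copies of the Apol7 family can share reads. On 384-well plates it too passed the filter through the Ehmt1delta/+ pool alone, so its values are likewise a description.

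The other genes among the 10 highest were mostly at lower levels, and those near 0 in WT may have passed the filter in the same way. Ppef1, a phosphatase gene, was at 0.225 and 1.52 RPKM in the 96-well plates and at 0.105 and 0.943 RPKM in the 384-well plates. Blnk, an adaptor of B cell receptor signalling, went from 0.756 to 2.51 and from 0.198 to 1.26 RPKM, and Hcrtr1, the orexin receptor 1 gene, from 0.25 to 0.908 and from 0.158 to 1.64 RPKM. The X-linked genes Xlr3b (0.63 to 4.74 and 0.393 to 1.20 RPKM) and Xlr4b (0.0976 to 1.87 and 0.29 to 1.09 RPKM) have close copies and are uncertain for that reason. Calml4, Col5a3 and Casp1 complete the 10.

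Casp1, which encodes the protease that matures interleukin 1 beta, is a gene the study asked about in Rorb-positive neurons. On 96-well plates the L4/5a nuclei had 1.09 RPKM of it in WT and 3.18 RPKM in Ehmt1delta/+. On 384-well plates they had 0.447 RPKM in WT, 1.44 in Ehmt1delta/+, 0 in iTg and 0.276 in Ehmt1delta/+ iTg. The log2 ratio of Ehmt1delta/+ to WT was 1.47 and 1.498 in the 2 formats (fitted 1.48, SE 0.18, limma unadjusted p = 0.00218, adjusted p = 0.785). Other excitatory nuclei had log2 ratios of 1.77 and 1.73, and the difference between the classes was -0.27 (SE 0.19, unadjusted p = 0.249), so that a difference between L4/5a and other excitatory nuclei was not shown.

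Most L4/5a nuclei had no Casp1 read. In the 96-well plates it was above 0 in 13 of 53 (24.5%, exact interval 13.8% to 38.3%) of WT and 26 of 60 (43.3%, 30.6% to 56.8%) of Ehmt1delta/+ L4/5a nuclei, a difference of 18.8 percentage points (0.0536 to 36.02). For 384 wells it was 7 of 67 (10.4%, 4.30% to 20.3%) in WT and 12 of 62 (19.4%, 10.4% to 31.4%) in Ehmt1delta/+, a difference of 8.91 points (-4.43 to 22.4). The intervals cover counting error between nuclei of 1 pool each and not the spread between mice. The L4/5a share was above those of the upper layer (7.84% and 5.17%), layer 5 (3.77% and 3.92%) and layer 6 nuclei (2.94% and 0%) in both WT pools. The study reported Casp1 in neurons and microglia of WT brain. Nuclei labelled oligodendrocyte had a Casp1 read in 1.37% of 73 nuclei of the 96-well WT pool. Their median depth there was 441701 reads against 344642 in L4/5a nuclei. None of 71 had one in 96-well Ehmt1delta/+, at 478605 against 350520 reads. Of the 384-well plates none had one either, but their median depth there was only 49635 to 54877 reads.

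In the pools with CamKII-CreER, 0 of 63 L4/5a nuclei of iTg had a Casp1 read, which allows a share of up to 4.76%. In Ehmt1delta/+ iTg 3 of 61 did (4.92%, 1.03% to 13.7%). Ehmt1 RNA was little higher in these pools than in their counterparts, as given above, so induction of the transgene was not seen in these values. The iTg share was lower than that of 384-well WT by 10.4 points (interval of the difference -20.3 to -2.08), and the share in Ehmt1delta/+ iTg was lower than that of 384-well Ehmt1delta/+ by 14.4 points (-27.1 to -1.90). There was 1 pool per genotype, so neither difference has a replicate. The iTg and 384-well WT pools also had different title codes, so genotype and title code cannot be told apart between them. The upper layer shares in iTg and Ehmt1delta/+ iTg were 6.15% and 9.80%, above those of the L4/5a nuclei. In the pools labelled Ehmt1delta/+ they were 32.7% against 43.3% of L4/5a nuclei on 96-well plates and 20% against 19.4% on 384-well plates. Intervals in all these classes were wide.

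The Casp1 shares were also taken at equal depth. Thinned to 287248 reads per nucleus, with 4 and 8 shallower nuclei left out, the 96-well shares were 23.8% in WT and 35.8% in Ehmt1delta/+ (unthinned in the same nuclei, 26.5% and 38.5%). Thinned to 191338 reads, the 384-well shares were 9.24% in WT, 14.4% in Ehmt1delta/+, 0% in iTg and 4.18% in Ehmt1delta/+ iTg, with 4, 11, 8 and 9 nuclei left out. The order of the pools was the same as without thinning, and the 384-well difference between Ehmt1delta/+ and WT was 5.16 points thinned and 5.44 points with at least 2 reads.

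The 96-well difference was not the same in all of the pools' title codes. Of the 3 codes that held both genotypes, one had 3 of 19 WT and 8 of 14 Ehmt1delta/+ nuclei with Casp1 and another had 1 of 9 and 3 of 11. In the last of the 3 the order was opposite, with 6 of 11 in WT and 5 of 16 in Ehmt1delta/+. The inhibitory marker RNA of the 96-well WT pool moved with the result too. There, 43 of 53 L4/5a nuclei had Gad1, Gad2 or Slc32a1 above 0, against 21 of 60 in Ehmt1delta/+. Among the nuclei without any of the 3, 6 of 10 WT and 16 of 39 Ehmt1delta/+ nuclei were Casp1-positive, which turns the difference to -19.0 points on few WT nuclei, whereas in the 384-well plates it was 6 of 52 and 11 of 50, or 10.5 points.

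**Figure D3:**
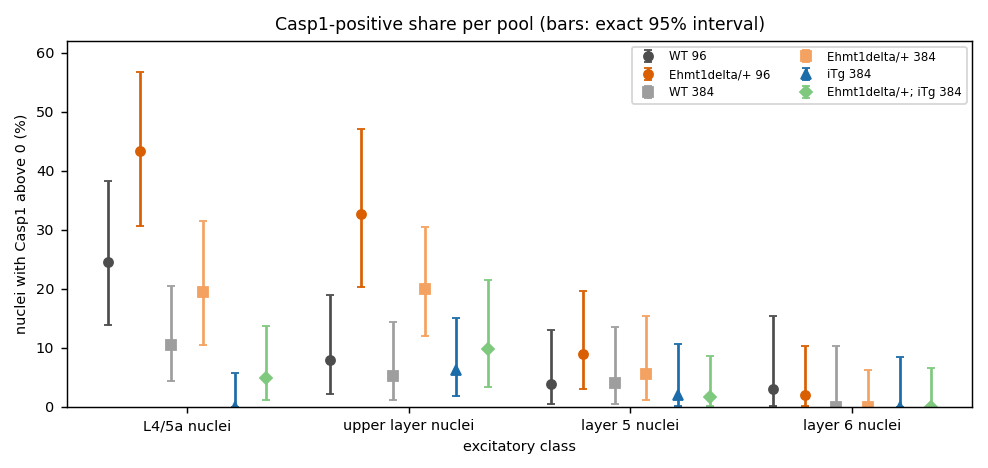
Percent of nuclei with Casp1 above 0 in each pool (colour and shape) and each class of excitatory nuclei, with exact 95% intervals for counting error. In the L4/5a nuclei the points run from 0% (iTg) to 43.3% (96-well Ehmt1delta/+), and layer 6 points stay at 2.94% or less.

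Casp1 was also set against the next score of each L4/5a nucleus, as a description. In 96-well WT, 13 of 42 nuclei whose next score was that of the upper layers were positive and 0 of 11 whose next score was layer 5 or 6. In 384-well Ehmt1delta/+, 11 of 42 and 1 of 20 were positive, whereas in 96-well Ehmt1delta/+ the shares were 22 of 50 and 4 of 10. By the number of L4/5a markers above 0 (up to 1, then 2, then 3), the Casp1-positive share was 14.3%, 25% and 28.6% in 96-well WT and 46.2%, 41.2% and 46.2% in 96-well Ehmt1delta/+. Among 384-well pools it was 6.67%, 10% and 16.7% in WT, 16.7%, 18.4% and 25% in Ehmt1delta/+, and 0%, 5.26% and 6.25% in Ehmt1delta/+ iTg. The smaller sets held 7 to 16 nuclei, and intervals were wide. The markers counted here are those the rule used. A deeper nucleus is more likely to show a marker and Casp1 alike, and this split was not made at equal depth. No trend is read from it.

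Of the 17 inflammasome and interleukin 1 genes, 6 were tested, 2 of them higher in Ehmt1delta/+ in both formats (Casp1 and Aim2) and none lower, against 21.7% and 30.1% of all genes. Il1b was between 0 and 0.164 RPKM and Nlrp3 between 0 and 0.267 RPKM in all 6 pools, too low for the test. Il1rap, a co-receptor of interleukin 1, was at 14.9 and 17.1 RPKM in the 96-well plates and at 8.11 and 8.10 RPKM in WT and Ehmt1delta/+ in the 384-well plates.

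Of 14 complement genes, 10 were tested, and 6 of the 10 were higher in Ehmt1delta/+ in both formats and 3 lower (against 21.7% and 30.1%). The proteases of the first complement component led these. C1s1 was at 1.18 and 3.24 RPKM in WT and Ehmt1delta/+ on 96-well plates. On 384-well plates it was at 1.48 in WT, 7.23 in Ehmt1delta/+, 1.19 in iTg and 0.766 in Ehmt1delta/+ iTg. By mean, both pools labelled Ehmt1delta/+ and without CamKII-CreER lay above the other 4. C1s1 was above 0 in 17% of WT and 25% of Ehmt1delta/+ L4/5a nuclei on 96-well plates. On 384-well plates the share was 19.4% in WT, 29% in Ehmt1delta/+, 22.2% in iTg and 16.4% in Ehmt1delta/+ iTg. The exact intervals of these shares all overlapped. Single high nuclei weigh in the means, with 67.4 RPKM (96-well) and 132.6 RPKM (384-well) in the highest Ehmt1delta/+ nucleus. C1s1 also went from 0.513 to 2.20 and from 0.625 to 1.49 RPKM in other excitatory nuclei. In Ehmt1delta/+ it was above 0 in 40.4% and 36.8% of layer 6 nuclei, against 25% and 29% of L4/5a nuclei. Of the 10 genes, 6 were higher and 1 lower in both formats in other excitatory nuclei. In L4/5a nuclei the fitted log2 ratio of C1s1 was 1.80 (SE 0.29, limma unadjusted p = 0.00528, adjusted p = 0.785). C1s2 had 1.27 (SE 0.19), C1ra 0.72 (SE 0.19) and C1rb 0.63 (SE 0.19). These 4 are paralogs in pairs and can share reads, so they count for less than 4 separate genes. Of the microglial markers C1qa, C1qb and C1qc, none exceeded 0.233 RPKM in any pool, and the summed level of 12 microglial markers was 12.1 and 12.4 RPKM in the 96-well WT and Ehmt1delta/+ pools and 9.32 and 6.92 RPKM in those of 384 wells.

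Genes that neurons switch on with activity had mostly lower mean values in the pools labelled Ehmt1delta/+. Of 16 such genes, 11 were lower in both plate formats and 0 higher, against 30.1% and 21.7% of all genes tested, and 6 had an unadjusted p under 0.05 (all lower). In the 96-well plates all 16 were lower by pool mean, with a median log2 ratio of -1.0. In the 384-well plates 11 were lower, with a median of -0.38. The medians over all genes were -0.02 and -0.05. In other excitatory nuclei the medians of the 16 were -0.65 and 0.07, and 7 of the 16 were lower in both formats. These counts rest on pool means, in which single high nuclei weigh heavily. The median L4/5a nucleus of the 96-well plates had more Npas4 in Ehmt1delta/+ (7.45 RPKM) than in WT (4.65 RPKM). Egr3 and Nptx2 medians over nuclei were also higher in Ehmt1delta/+. Those of Fosl2, Junb, Egr1, Arc, Nr4a1, Nr4a3, Bdnf and Vgf were lower. Those of Fos, Fosb, Egr2, Egr4 and Nr4a2 were 0 in both pools. In the 384-well plates the medians over nuclei of Fosl2, Egr3 and Vgf were higher in Ehmt1delta/+ than in WT. Medians of Junb, Egr1, Arc, Nr4a1, Nr4a3, Npas4 and Bdnf were lower there, and the rest of the 16 had medians of 0 in both.

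Egr1, a zinc finger transcription factor of the immediate-early response, was at 14.5 RPKM in WT and 2.96 RPKM in Ehmt1delta/+ on 96-well plates. On 384-well plates it was at 49.98 in WT, 14.3 in Ehmt1delta/+, 15.7 in iTg and 15.8 in Ehmt1delta/+ iTg. It was above 0 in 94.3% and 63.3% of the L4/5a nuclei in the 96-well WT and Ehmt1delta/+ pools, and in 92.5% and 77.4% of those of 384 wells. The fitted log2 ratio was -2.03 (SE 0.22, limma unadjusted p = 0.00146, adjusted p = 0.785). Other excitatory nuclei had log2 ratios of -1.51 and -0.49, and the difference between the classes was -1.03 (unadjusted p = 0.0184, which did not pass adjustment).

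The 96-well WT pool also had more Egr1 outside neurons. Nuclei labelled oligodendrocyte had 9.23 RPKM in WT and 1.94 RPKM in Ehmt1delta/+ on 96-well plates (above 0 in 68.5% and 29.6%), and nuclei labelled microglia had 9.57 and 3.82 RPKM (77.8% and 34.4%). Glial nuclei of the 384-well plates were too shallow for this comparison. The part of the pool as a whole in the Egr1 difference was not tested.

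Btg2, an antiproliferative gene induced early, was at 3.94 and 0.448 RPKM in the 96-well plates and at 8.08 and 1.73 RPKM in the 384-well plates, with 2.95 in iTg and 3.55 in Ehmt1delta/+ iTg. Dusp1, a phosphatase gene that shuts off MAP kinases, was at 4.61 and 1.42 RPKM and at 24.8 and 7.32 RPKM, with 9.15 and 11.8 RPKM in the transgene pools. Both were among the 10 lowest genes by the ranking and stand outside the list of 16. Fos went from 3.57 to 1.39 and from 14.6 to 3.97 RPKM, Junb from 1.40 to 0.531 and from 6.32 to 1.92 RPKM, and Arc, a synaptic gene, from 55.8 to 23.8 and from 227.05 to 123.5 RPKM. The 384-well Arc medians over nuclei were closer, at 100.4 RPKM in WT and 86.96 RPKM in Ehmt1delta/+. The highest WT nucleus there had 2160.7 RPKM. Egr3 was an exception with 11.7 and 9.18 RPKM in the 96-well and 17.9 and 25.03 RPKM in the 384-well plates, and Nptx2 another with 7.57 and 6.5 and then 4.47 and 9.75 RPKM.

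In the 384-well plates it was the WT pool that stood above the others. Egr1, Fos, Junb, Npas4 and Arc were at like levels in Ehmt1delta/+, iTg and Ehmt1delta/+ iTg, which share a title code, and higher in WT, which has its own. Genotype and title code cannot be told apart there. In the 96-well plates 3 title codes held both genotypes, and 14, 13 and 15 of the 16 genes were lower in Ehmt1delta/+ within them. In these codes, in the same order, Egr1 was at 14.8, 20.1 and 18.7 RPKM in WT and at 4.27, 1.0 and 0.933 RPKM in Ehmt1delta/+. In the codes with 1 genotype it was at 7.05 RPKM (WT) and 4.80 RPKM (Ehmt1delta/+). The labels do not say what a title code stands for. In L4/5a nuclei without Gad1, Gad2 or Slc32a1, 11 of the 16 were lower in both formats, as in all L4/5a nuclei.

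**Figure D4:**
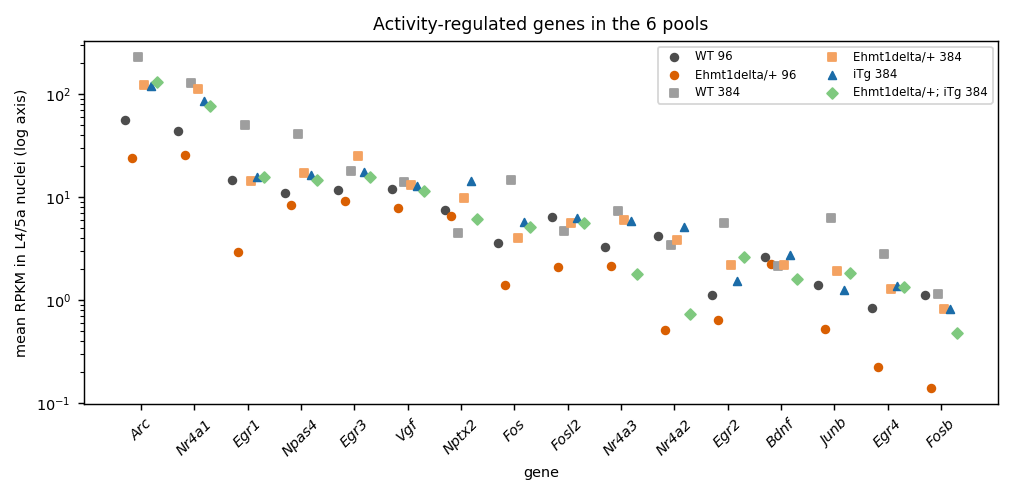
Mean RPKM (log axis) of 16 activity-regulated genes in the L4/5a nuclei of each pool (1 point per pool). In the 96-well plates the Ehmt1delta/+ point is below the WT point for each gene, and in the 384-well plates WT is the highest of 4 for Arc, Egr1, Npas4, Fos and Junb.

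The other genes among the 10 lowest were Sertm1 (0.566 to 0.0866 and 2.07 to 0.459 RPKM), Pspn, Fn1, Henmt1, Tmem35a, Rnf17 and Lypd1. Those near 0 in Ehmt1delta/+ may have passed the filter on low values through the WT pools alone. A gene kept in that way had to come out lower, so these values are a description. Fn1, the fibronectin gene, was at 0.391 and 0.0581 RPKM in the 96-well and at 2.23 and 0.0502 RPKM in the 384-well plates, with 0.149 and 0.0266 RPKM in the transgene pools. With Scnn1a left out of the rule the fitted log2 ratio went from -2.79 to -1.30 for Fn1, from -1.48 to -0.04 for Rnf17 and from -1.73 to -0.64 for Lypd1. A set of 12 mitochondrial and nuclear RNAs that follow RNA quality had median log2 ratios of -1.74 and 1.28 in the 2 formats, with mt-Co1 at 114.6 and 28.1 RPKM in the 96-well and 32.7 and 96.6 RPKM in the 384-well WT and Ehmt1delta/+ pools. It went in opposite directions, and its part in the gene differences was not tested.

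Gad1 itself was lower in Ehmt1delta/+ L4/5a nuclei in both formats (log2 ratios -2.02 and -1.40), and the rule had used it to choose excitatory nuclei. The summed level of the other 19 interneuron markers was 72.2 RPKM in 96-well WT and 37 RPKM in 96-well Ehmt1delta/+ and between 33.9 and 48.5 RPKM in the 384-well pools, of which Cck, also made by excitatory neurons, was 57.1, 29.5 and 26.4 to 38.5 RPKM. Between 1 and 5 of these 19 markers were at 0 in all L4/5a nuclei of a pool. The part of this in the genotype differences was not tested.

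The rule chose nuclei by Rorb, Rspo1 and Scnn1a on a scale shared by the genotypes, so their levels by genotype are a description. Rorb had log2 ratios of -0.06 and 0.03 between Ehmt1delta/+ and WT in the 2 formats, Rspo1 -0.07 and 0.21, and Scnn1a -0.70 and 0.25. Adam33, which the rule did not use, had 0.42 and -0.38. Of 20 postsynaptic and spine genes, 8 were higher and 5 lower in both formats and 0 had an unadjusted p under 0.05. Of 22 glutamate receptor genes tested, 5 were higher and 9 lower, and of 29 ion channel genes 5 were higher and 10 lower, near the 21.7% and 30.1% of all genes. Snap25, a gene of the synaptic vesicle fusion machinery and a marker of neurons, was at 153.9 and 143.3 RPKM in the 96-well plates and at 74.9, 72.8, 76.9 and 129.9 RPKM in WT, Ehmt1delta/+, iTg and Ehmt1delta/+ iTg. The last of these 4 stood apart from the other 384-well pools.

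**Figure D5:**
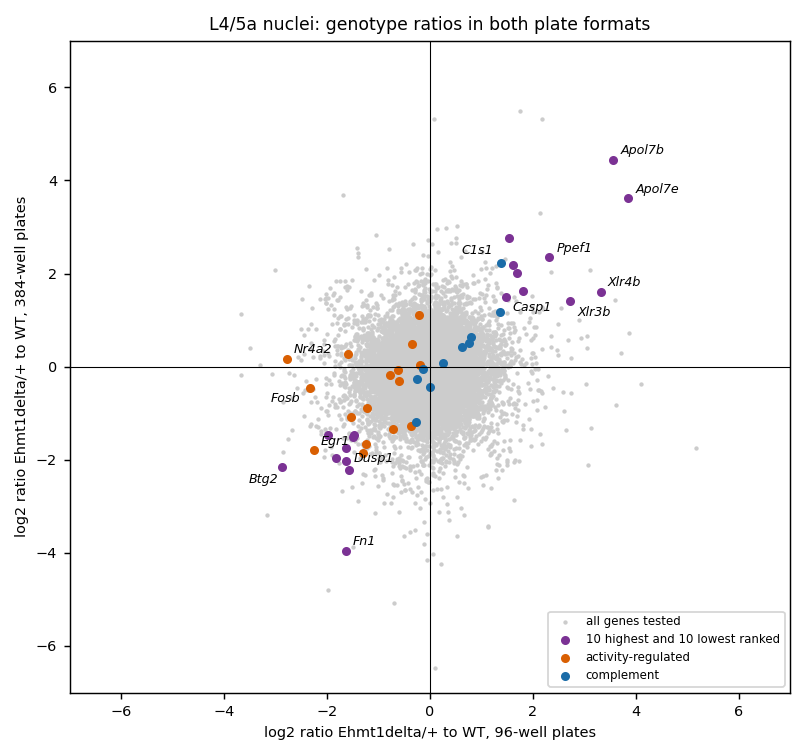
Log2 ratio of mean RPKM + 0.1 between Ehmt1delta/+ and WT in L4/5a nuclei, 96-well plates on the x axis and 384-well plates on the y axis, for all 23380 genes tested (grey), the 10 highest and 10 lowest genes of the ranking, and 2 gene lists. Apol7b and Apol7e lie farthest to the upper right, and most activity-regulated genes lie to the lower left.

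The comparisons of 384-well pools with and without CamKII-CreER had no replicate pool, and WT and iTg differed in title code too. From 384-well WT to iTg, 428 of 23380 genes (1.83%) were 2-fold or more higher and 1736 (7.43%) lower, and from 384-well Ehmt1delta/+ to Ehmt1delta/+ iTg, 2360 (10.1%) were higher and 939 (4.02%) lower. The median log2 ratios over all genes were -0.11 and 0.14, so the 2 comparisons were off centre in opposite directions. C1s1 had log2 ratios of -0.29 and -3.08 in them, and Apol7b of 1.15 and -2.40. The C1s1 ratios rest on pool means in which single high nuclei weigh. Plxnd1 was at 95.2 RPKM in WT, 121.1 in Ehmt1delta/+, 157.8 in iTg and 94.2 in Ehmt1delta/+ iTg.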

How the data were processed

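Single-nucleus RNA was measured by RamDA-seq in 6 pools. The authors mapped reads to mm10 with HISAT2 2.0.4 and counted them with featureCounts of Subread 1.5.0 (versions from the submitters' processing notes) on Gencode genes, and deposited RPKM per gene and nucleus, 1 table per plate format. A median of 70.8% (96-well) and 74.0% (384-well) of values above 0 gave whole reads when GENCODE M21 exon lengths were used. The study counted with default settings on another Gencode version, so gene lengths may differ. Why the other values were not whole was not tested. Counting did not use strand. Positions come from GENCODE M21 (49121 of 52636 genes).

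Pool means of RPKM over L4/5a nuclei were taken as log2(mean + 0.1) and compared by limma 3.58.1 in R 4.3.3, with plate format as a block, 4 pools and 1 residual degree of freedom, and Benjamini-Hochberg adjustment. Fold changes on this scale understate the change of low genes. Genes above 0 in at least 10% of L4/5a nuclei of WT or Ehmt1delta/+ in each format were tested, and that genotype could differ between formats. The difference between classes was tested on the within-pool difference. A pool is 1 sample. The p-values rest on the disagreement between plate formats and on a variance moderated across genes, not on replicate pools. Shares have exact Clopper-Pearson 95% intervals, and a share of 0 is given the limit that 3 counts allow, both for counting error only. PCR copies are not separate molecules. Python 3.11.15 with SciPy 1.17.1 was used. The fit was also run on simulated data whose noise came from the fit itself, which is no check of how it does on these data.

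The nuclei, the 28 gene lists and the tests were chosen with earlier results of these data known. Named genes are the rule markers and the genes the study asked about, the 10 highest and 10 lowest by the smaller of both genotype ratios, the 15 highest and 10 lowest by the smallest of 6 class ratios (at least 2 RPKM), and the top members of each list by level (3) and ratio (2). Predicted genes and the like were passed over. Other list members named, and the settings without inhibitory marker reads, were chosen after their values were seen. Alternatives changed the membership rule, pseudocount, filter, normalization, block and depth.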

Additional observations from a re-analysis of the deposited data

Results flagged for a closer look

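Among the named genes tested, 4 had log2 ratios between Ehmt1delta/+ and WT of at least 0.5 in size that were opposite in the 2 plate formats. Bcl6, a transcriptional repressor gene, had -3.66 in the 96-well plates (1.70 RPKM in WT and 0.0416 RPKM in Ehmt1delta/+) and 1.13 in the 384-well plates (1.81 and 4.07 RPKM). Aldoc, a glycolytic enzyme gene that marks astrocytes in cortex, had -1.02 and 1.10. Crym, which encodes a thyroid hormone binding protein, had 0.72 and -1.13. Bglap3, one of the genes higher in L4/5a nuclei in all 6 pools, had -0.68 and 0.54. Each format had 1 pool per genotype, and the difference between formats was not tested.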

How the results depend on the processing

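The share of L4/5a nuclei was 21.5% of excitatory nuclei with a lead of at least 0.25 and 24.5% with Rorb left out, against 27.6%, and the other rules gave up to 381 nuclei. Without Rorb in the rule, 92 genes were 2-fold higher in all 6 pools, 86 of them shared with the full rule, which had over 1.5 times as many. The 96-well Casp1 difference of 18.8 points was 41.4 within one title code, -23.3 within another and -19.0 in nuclei without inhibitory marker reads. It was 9.72 to 31.1 when 1 code was left out in turn, 10.6 with Rorb left out of the rule, 12.1 with a lead of at least 0.25 and 12 thinned. The 384-well difference of 8.91 points was 4.41 with Rspo1 left out, 5.16 thinned and 5.44 with at least 2 reads. The cause was not tested. The genotype fit called 0 genes in each alternative run. At an unadjusted p of 0.05 it had 1461 genes, far fewer without the plate format block, and 16 of 17 alternatives stayed within 1.5 times. Quantile normalization gave 719 higher and 686 lower, against 526 and 935, and means of log values gave 1418 lower. The Casp1 log2 ratio ran from 0.46 to 1.63. All 555 values of 31 genes under alternatives had the sign of the main value, but sizes moved. That count is no test of the signs. The trend, filter and block settings leave a log2 ratio as it is, and so did the stricter Slc17a7 cut. Many of the genes were chosen for the same sign in both formats. A gene that failed the filter of a setting has no value there. Without Scnn1a in the rule, Rnf17 went from -1.48 to -0.04, Lypd1 from -1.73 to -0.64, Fn1 from -2.79 to -1.30 and Sertm1 from -1.90 to -1.14. With all 6 pools in the fit, C1s1 went from 1.80 to 1.01 (limma unadjusted p = 0.138), Btg2 from -2.52 to -1.59 (p = 0.0574), Junb from -1.46 to -0.80 (p = 0.151) and Egr1 from -2.03 to -1.35 (p = 0.0395). With 1 pool per genotype and format, no pool could be left out of the test. No paired analysis was possible because there was 1 pool per genotype and format and pools carry no replicate number that groups share. The 96-well title codes that hold both genotypes were compared as values only. Most nuclei had no Casp1 read, so at this depth a nucleus without one may still express the gene.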
